A study of Mus musculus with 4 samples.

Results

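The 10 genes described here are factors of the hypoxia response and targets of it outside glycolysis: Hif1a, Epas1, Vhl, Egln1, Egln3, Vegfa, Bnip3, Ankrd37, Adm and Car9. They were found by symbol, and all 10 were present among the 78028 rows of each library's count table. RNA came from 4 cultures labelled hepatocyte-like cells, each differentiated separately from E14TG2a, an HPRT-deficient mouse embryonic stem cell line, by the protocol named A-HIC, an advanced cocktail for hepatic induction. All 4 belong to 1 group, called libraries 1 to 4 after the replicate numbers, with no untreated or undifferentiated group among them. The oxygen level of the cultures is not given in the sources used here.

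Cells sense oxygen through hypoxia-inducible factors (HIFs), pairs of an oxygen-labile alpha subunit and the stable partner ARNT. In the presence of oxygen, prolyl hydroxylases (the Egln genes) mark the alpha subunit, and the protein encoded by Vhl brings it to a ubiquitin ligase for destruction. When oxygen is short, the alpha subunit escapes and the pair binds a short motif, the hypoxia response element, near its target genes. Because this switch acts on the protein, the transcript level of an alpha subunit is not a measure of its activity. In the adult liver, oxygen falls along the lobule from the portal to the central vein.

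Libraries 1 to 4 held 37797816, 40154964, 29518642 and 40124479 counts. The hepatocyte label was set against its markers: of 10 hepatocyte genes, Ttr was the highest, at 14.3 ± 12.2 TPM (SD, n = 4), a level scaled for gene length and library total, and it alone reached 1 TPM in all 4 libraries. Its level was uneven, at 4.07, 30.8, 5.99 and 16.5 TPM in libraries 1 to 4. Fabp1, Cyp7a1, G6pc1 and Tat had 3 counts or fewer in every library. All 8 markers of pluripotent stem cells and all 12 of parietal endoderm, an extraembryonic tissue that lays down basement membrane, were above 1 TPM in every library. The 4 are therefore called libraries labelled hepatocyte-like, not hepatocytes. RNA was measured in bulk, so fewer cells of a type and less RNA per cell cannot be told apart. The labels describe the cultures as generated independently, and all tests rest on the spread between these 4.

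The HIF motif was looked for in the 250 bases before each gene's RefSeq start (GRCm38.p6). The letters searched were ACGTG and GCGTG on the gene's strand and CACGT and CACGC for the opposite strand, so that the palindrome CACGTG counts 2 times. Of the 10 genes, 9 matched a window, Vegfa with 2, and 8 of the 9 genes held a match. Counted by window, 8 of 10 (80.0%) held one, against 38.6% of all 32851 windows and 63.8% of those with a GC content of 60% or more. The last share is not for like windows, since the GC content of the 10 ran from 50.8% (Egln3) to 86.0% (Egln1). Vhl held none, and of the 2 Vegfa windows the upstream one held none and the other 2. A match describes the letters only. The 2 genes with the most matches are shown up to the first annotated GENCODE transcript start, 5′ to 3′ on the gene's strand with each match in capitals. They are Bnip3 on the minus strand (chr7:138909520-138909756) and Ankrd37 on the minus strand (chr8:45999868-46000100).
Bnip3: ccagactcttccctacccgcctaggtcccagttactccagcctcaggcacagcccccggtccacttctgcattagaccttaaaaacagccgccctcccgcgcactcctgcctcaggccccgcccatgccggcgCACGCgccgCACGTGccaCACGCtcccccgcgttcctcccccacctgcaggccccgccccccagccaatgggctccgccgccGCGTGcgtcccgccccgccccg
Ankrd37: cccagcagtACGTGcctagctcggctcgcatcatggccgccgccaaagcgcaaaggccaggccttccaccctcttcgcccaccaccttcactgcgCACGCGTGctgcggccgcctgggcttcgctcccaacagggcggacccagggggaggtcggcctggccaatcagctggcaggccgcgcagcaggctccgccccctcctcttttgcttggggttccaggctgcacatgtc
For the other targets, 30 bases around single matches are given in the same way, with the first capital's position counted back from the RefSeq start. They come from Car9 at -18, the match nearest to a start after one of Ankrd37 at -6, Adm at -54, Egln1 at -68 and Egln3 at -229. A GENCODE transcript already holds the last 60 bases before the RefSeq start of Car9, the last 70 of Egln1 and the last 17 of Ankrd37. The matches of Car9 at -18, Egln1 at -68 and Ankrd37 at -6 thus lie within a transcript, not upstream of it.
Car9 (chr4:43506996-43507025, plus strand): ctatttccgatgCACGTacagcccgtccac
Adm (chr7:110627591-110627620, plus strand): ggcaaatctgacCACGCccaccgtccgccc
Egln1 (chr8:124949305-124949334, minus strand): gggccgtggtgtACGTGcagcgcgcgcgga
Egln3 (chr12:54204086-54204115, minus strand): tgtgcatctcagACGTGagatccaggtttt
The gene with the lowest level of the 10, Car9, had a match close to its RefSeq start but within a transcript, and Hif1a, with the highest level, had 3.

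All 10 genes reached 1 TPM in every library and are called expressed, where 63.3% of 19969 protein-coding genes and 30.3% of all genes with a known length did so. By mean level, the order was Hif1a, Vegfa, Epas1, Bnip3, Egln3, Egln1, Vhl, Adm, Ankrd37 and Car9. Hif1a stood at percentile 94.95 of protein-coding genes and Car9 at percentile 39.2. The ranges of neighbours over the 4 libraries overlapped from Hif1a down to Vhl, so the ranges alone do not separate neighbours among these 7. Within each library, Hif1a was above Vegfa, Bnip3 above Egln3 and Egln3 above Egln1 in 4 of 4, while the other neighbours among the 7 were in that order in 2 of 4. They did not overlap between Vhl and Adm, Adm and Ankrd37, or Ankrd37 and Car9. The plot of levels by library shows these 3 steps.

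**Figure D1:**
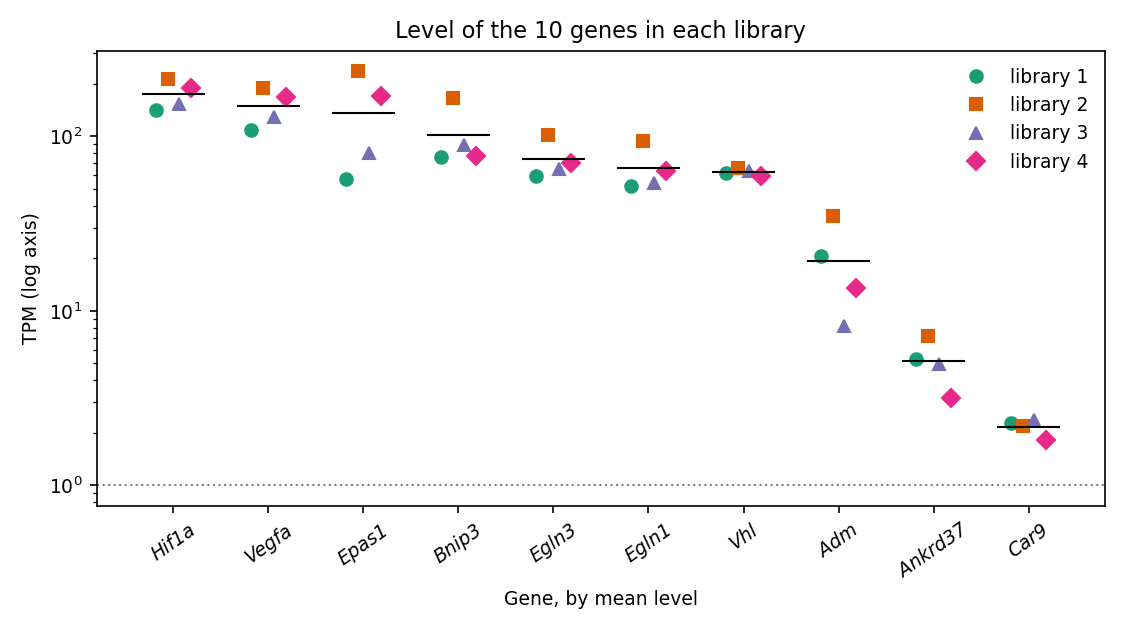
TPM (log axis) of the 10 genes in libraries 1 to 4, ordered by mean level, with points for libraries and a bar for the mean of the 4. The first 7 genes lie between 51.8 and 236 TPM, Adm between 8.15 and 35.1 TPM, and Ankrd37 and Car9 below 10 TPM. The dotted line marks 1 TPM.

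Hif1a, the alpha subunit found in nearly all cell types, stood at 142, 214, 154 and 190 TPM in libraries 1 to 4 (175 ± 32.9 TPM, SD, n = 4). In the GENCODE M21 annotation, an antisense gene, Gm15283, overlaps 5.60% of the exon bases of Hif1a, where reads cannot be told apart without strand. Epas1, which encodes HIF-2 alpha and is known from endothelium and other more restricted cell types, stood at 57.0, 236, 80.5 and 171 TPM (136 ± 82.6 TPM). Libraries 2 and 4 were high and libraries 1 and 3 low for both, over a range of 1.39 times for Hif1a and 3.83 times for Epas1 in CPM, counts scaled for the library total alone. The ratio of Epas1 to Hif1a therefore differed between cultures, with log2 values of -1.32, 0.14, -0.93 and -0.15 (mean -0.57 ± 0.68). Epas1 was above Hif1a in library 2 alone, both per length and by counts. With the longest transcript as length the mean was -0.87 ± 0.68, a fall larger than the 0.14 of library 2. Epas1 was then above Hif1a in no library.

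The other oxygen-sensing genes, a list of 12, were all expressed. Elob, Cul2 and Eloc, parts of the ubiquitin ligase that works with the Vhl protein, were the highest at 291 ± 37.8, 114 ± 11.3 and 113 ± 2.97 TPM. Arnt2, a relative of Arnt, and P4htm, a membrane prolyl hydroxylase, were the lowest at 3.73 ± 0.539 and 3.20 ± 1.21 TPM. Arnt itself, named after its values were seen, stood at 73.7 ± 3.83 TPM. By edgeR's measure of spread between cultures, 0 of the 12 lay above the 90th percentile for their abundance.

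Vhl had 61.7, 65.7, 63.1 and 59.6 TPM in libraries 1 to 4 (62.5 ± 2.53 TPM). Its CPM differed by 1.09 times from lowest to highest, the narrowest range of the 10 genes. Egln1, the main oxygen sensor among the prolyl hydroxylases, had 51.8, 94.4, 53.9 and 63.1 TPM (65.8 ± 19.7 TPM). Egln3, a hydroxylase that is itself a strong HIF target, had 59.6, 102, 65.3 and 70.2 TPM (74.2 ± 18.9 TPM). Both were high in library 2 and within 1 narrow band in the other 3. Egln3 was above Egln1 in 4 of 4 libraries, by a log2 ratio of 0.19 ± 0.07. That order holds per length only: in CPM the ratio was -0.25, so Egln1 had more counts.

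Egln2, another prolyl hydroxylase of the family, stood at 67.9, 67.8, 68.9 and 68.9 TPM. The log2 ratio of Egln1 to Egln2 was 0.48 in library 2, against -0.39, -0.35 and -0.13 in libraries 1, 3 and 4. Per length, Egln1 was thus above Egln2 in library 2 and below it in the others. In CPM the mean ratio turned to 0.26, against -0.10 per length, and Egln1 had more counts than Egln2 in libraries 2, 3 and 4.

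Vegfa, the secreted growth factor that draws in blood vessels, stood at 109, 189, 130 and 169 TPM in libraries 1 to 4 (149 ± 36.8 TPM). As for the alpha subunits, libraries 2 and 4 were the higher. It exceeded its relatives in 4 of 4 libraries, Vegfb by a log2 ratio of 1.39 ± 0.37, Vegfc by 2.73 ± 0.41 and Pgf by 4.50 ± 0.37. Vegfb averaged 55.7 ± 4.19 TPM, Vegfc 21.9 ± 2.26 TPM and Pgf 6.51 ± 1.68 TPM.

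The other VEGF ligands and receptors, a list of 9, were all expressed. Besides Vegfb, the highest were Vegfd, a lymphatic growth factor, at 34.7, 68.4, 23.6 and 40.9 TPM, and Flt1, a VEGF receptor that also acts as a decoy, at 12.4, 45.3, 14.8 and 35.7 TPM. Flt1 was high in the same libraries as Epas1. Flt4, the receptor of Vegfc and Vegfd, and Kdr, the main signalling receptor of Vegfa, were the lowest at 4.69 ± 0.667 and 1.69 ± 0.379 TPM. Of 10 endothelial markers, 6 reached 1 TPM in every library with Pecam1 the highest at 45.3 ± 10.5 TPM, and Emcn had 3 counts or fewer in each. Their summed level was 131, 121, 139 and 134 CPM in libraries 1 to 4, but the members differed. Pecam1, an adhesion protein that stem cells also carry, had 49.99, 33.5, 57.4 and 40.4 TPM, lowest in library 2. Cdh5, the endothelial cadherin, had 16.5, 34.8, 14.9 and 35.8 TPM and Tek, the angiopoietin receptor, 6.40, 10.5, 4.82 and 8.44 TPM. Cdh5 and Tek, named after their values were seen, were high in libraries 2 and 4, as Epas1 and Flt1 were. No other marker of the 10 had both libraries 2 and 4 above libraries 1 and 3. Cldn5 had 1.02, 0.556, 1.97 and 0.542 TPM and Vwf 1.90, 1.89, 2.05 and 2.16 TPM, also named after values were seen. Pecam1, Cdh5 and Tek lay above the 90th percentile of spread for their abundance, and their part in the values of Epas1, Vegfa and Flt1 was not tested.

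Bnip3, a receptor on mitochondria that marks them for degradation, stood at 76.4, 166, 89.2 and 77.8 TPM in libraries 1 to 4 (102 ± 42.6 TPM). Library 2 stood above the others, which lay close together. An antisense gene, Gm45507, overlaps 22.3% of the exon bases of Bnip3 and had 0 counts. Its relative Bnip3l stood at 94.7, 138, 95.5 and 111 TPM (110 ± 20.4 TPM), also highest in library 2. The log2 ratio of Bnip3 to Bnip3l was 0.26 in library 2, against -0.31, -0.10 and -0.51 in libraries 1, 3 and 4. Of 11 mitophagy genes, Bnip3l included, 10 were expressed. Phb2, an inner membrane protein, and Fkbp8, an outer membrane receptor, stood at 131 ± 11.2 and 105 ± 8.14 TPM. Optn, an adaptor, stood at 22.3 ± 2.02 TPM.

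Adm, the precursor of the vasodilator adrenomedullin, stood at 20.5, 35.1, 8.15 and 13.6 TPM in libraries 1 to 4 (19.4 ± 11.7 TPM). It ranged over 4.09 times in CPM, the widest range of the 10 genes, with library 2 the highest and library 3 the lowest. Adm2, a related peptide, stood at 15.6, 9.39, 10.5 and 5.91 TPM. The log2 ratio of Adm to Adm2 was 0.39, 1.89, -0.36 and 1.19 in libraries 1 to 4. Calcrl, the receptor core for adrenomedullin, stood at 7.33 ± 3.53 TPM, and its partners Ramp2 and Ramp3, which make it an adrenomedullin receptor, at 11.1 ± 3.42 and 11.4 ± 4.74 TPM. Ramp1, which makes it a receptor for a related peptide, had 10 counts or fewer in every library. Calca, whose products include that peptide and calcitonin, stood at 23.1 ± 2.37 TPM.

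Ankrd37, an ankyrin repeat protein known as a HIF target, had 84, 113, 60 and 51 counts, or 5.28, 7.22, 4.94 and 3.18 TPM in libraries 1 to 4. Counting error alone allows 5.95 to 8.68 TPM in library 2 and 2.37 to 4.18 TPM in library 4 (exact Poisson, 95%), so these 2 libraries differed by more than it. If both ends of each read pair were counted, the intervals widen to 5.46 to 9.37 and 2.07 to 4.67 TPM and still do not meet. In the GENCODE M21 annotation 22.7% of its exon bases overlap Lrp2bp and 3.70% Ufsp2 on the opposite strand, and these libraries keep no strand, so reads in the shared bases cannot be told apart. Ufsp2 averaged 1032 counts and Lrp2bp 8.75 counts, so the level of Ankrd37 is uncertain.

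Car9, a cell-surface carbonic anhydrase widely used as a mark of hypoxic tumour cells, had 54, 51, 43 and 44 counts. Its level was 2.27, 2.18, 2.37 and 1.83 TPM in libraries 1 to 4 (2.16 ± 0.233 TPM). The spread of its CPM, 12.6% of the mean, was no larger than the counting error of 14.4%. In these data Car9 was low and even across libraries. An antisense gene, Gm12454, overlaps 9.29% of its exon bases and cannot be told apart there.

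Car9 lay below Car12, another membrane form, by a log2 ratio of -1.83 ± 0.47 and below Car2, a cytosolic form, by -4.68 ± 0.08, both in 4 of 4 libraries. Car12 averaged 8.11 ± 1.99 TPM and Car2 57.9 ± 8.13 TPM. Of the 12 other carbonic anhydrases, 8 were expressed. Car13, cytosolic, and Car4, on the membrane, were the next highest after Car2 at 53.2 ± 5.03 and 18.2 ± 4.43 TPM. Car15 had 6 counts or fewer in every library and Car1, the form of red blood cells, had 0.

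The 10 ratios to a related gene are drawn together, with the gene from the set on top of each ratio. In 6 of the 10 pairs all 4 libraries had the same sign, and in the other 4 a single library differed, library 2 in 3 of them and library 3 in the pair of Adm and Adm2. These signs are those of levels per length: by counts Bnip3 was below Bnip3l in all 4 libraries, Egln3 was below Egln1 in all 4, and Egln1 was below Egln2 in library 1 alone. With the longest transcript as length, Epas1 was below Hif1a in all 4. With 4 libraries the exact two-sided sign-flip permutation test cannot give less than 0.125, so no pair could pass 0.05.

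**Figure D2:**
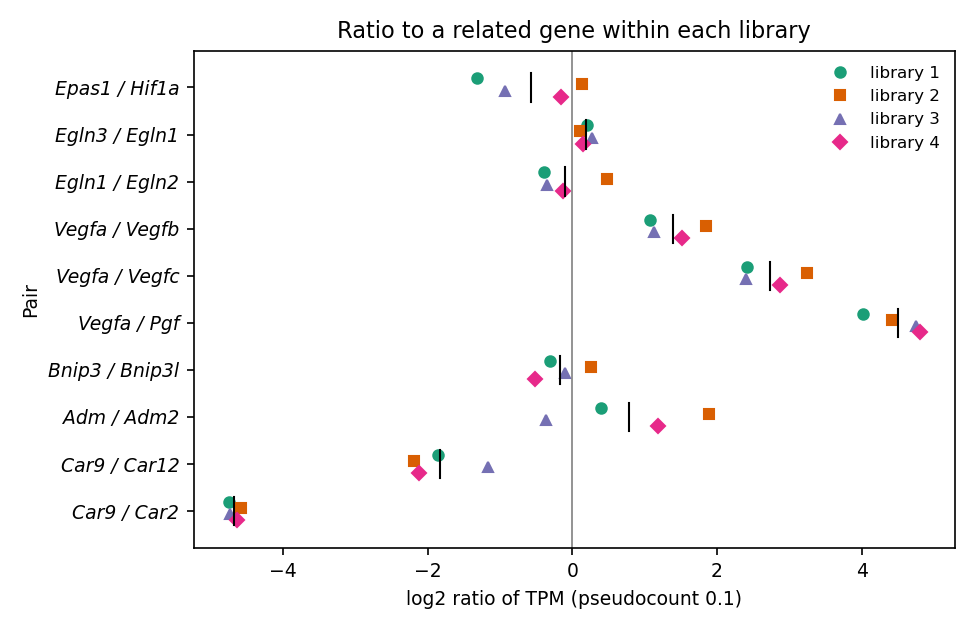
log2 ratio of the TPM of a gene of the set to that of a related gene (pseudocount 0.1) within each library, with points for libraries and a bar for the mean of 4. The Vegfa ratios lie above 0 and the Car9 ratios below 0 in all libraries, while Epas1 over Hif1a runs between -1.32 and 0.14.

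The spread between cultures was measured as edgeR's gene-wise biological coefficient of variation and placed among genes of like abundance (10 classes of mean CPM, 17398 genes tested). All 10 genes passed the filter on low counts. By percentile Epas1 came first with a coefficient of 0.422, at percentile 99.8 of its class, whose median was 0.113. Bnip3 followed with 0.270 (percentile 98.1), Adm with 0.430 (percentile 96.2), Egln1 with 0.213 (percentile 95.1), Vegfa with 0.191 (percentile 94.3) and Egln3 with 0.192 (percentile 92.8). These 6 of 10 lay above the 90th percentile, where 10% of genes lie by construction. Hif1a (0.157, percentile 88.3), Ankrd37 (0.312, percentile 72.2), Vhl (0.115, percentile 21.3) and Car9 (0.233, percentile 6.03) did not.

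Without library 2, the percentiles of Egln1, Egln3 and Bnip3 were 65.0, 59.2 and 55.2, and their coefficients 0.124, 0.121 and 0.119. The wide spread of these 3 genes thus rested on that library. Epas1 remained between percentiles 99.5 and 99.9 with any single library left out, and Adm between percentiles 91.7 and 99.7.

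**Figure D3:**
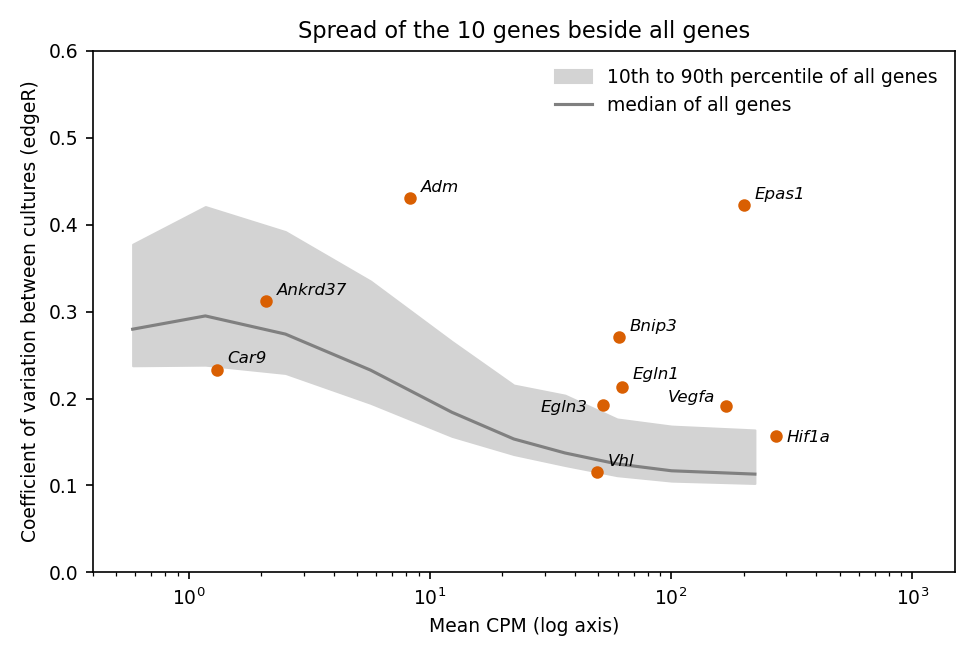
Biological coefficient of variation between the 4 cultures against mean CPM (log axis) for the 10 genes, over the median (line) and the range of the 10th to 90th percentile (grey) of all 17398 genes tested. Epas1 (0.422) and Adm (0.430) stand highest, and Vhl (0.115) and Car9 (0.233) lie below the median for their abundance.

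The labels put all 4 libraries in 1 group, so each library was compared with the other 3. With edgeR's quasi-likelihood test and Benjamini-Hochberg adjustment at 0.05, 0% of 17398 genes were called in each of the 4 comparisons, and so none of the 10. At an unadjusted p under 0.05 the 10 genes gave 2, 4, 1 and 0 for libraries 1 to 4, where the shares of all genes were 5.32%, 7.38%, 1.57% and 1.55%. DESeq2 called 8, 69, 3 and 3 genes in all and 0, 1, 0 and 0 of the 10, the 1 being Bnip3 in library 2, where Car9 had no adjusted p.

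Bnip3 had 166 TPM in library 2, against 81.1 ± 7.03 TPM in the other 3 (SD, n = 3), a log2 difference of 1.03 ± 0.14 (SE, edgeR adjusted p = 0.382). DESeq2 gave it an adjusted p of 0.000156 with a log2 difference of 1.03 ± 0.19. Egln1 had 94.4 TPM in library 2, against 56.3 ± 6.04 TPM in the other 3, a log2 difference of 0.75 ± 0.15 (edgeR adjusted p = 0.626). The corresponding differences of Egln3 and Adm were 0.65 ± 0.14 and 1.31 ± 0.45, with the same adjusted p. For Epas1 and Hif1a they were 1.20 ± 0.50 and 0.40 ± 0.17, and for Vhl and Car9 0.09 ± 0.14 and 0.02 ± 0.41, again short of the threshold.

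Library 2 held the highest CPM for 8 of the 10 genes, all but Vhl and Car9, where 22.3% of genes tested were highest there. The highest CPM was 2 or more times the lowest for 4 of 10 genes (Epas1, Adm, Ankrd37 and Bnip3), against 18.8% of genes tested. Library 1 stood below all 3 others for Epas1, at 57.0 TPM, against 162 ± 78.0 TPM in the other 3, a log2 difference of -1.49 ± 0.55 (edgeR adjusted p = 0.723). Library 3 stood lowest for Adm, at 8.15 TPM, against 23.1 ± 10.97 TPM in the other 3, a difference of -1.52 ± 0.59 (adjusted p = 1.00).

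These counts depended on which libraries were set against each other. With 1 library left out, genes were called only where the pair left was libraries 2 and 4 or libraries 1 and 3. Leaving out library 3, edgeR called 6 of the 10 in library 1, and leaving out library 4 it called 7 in library 2. Leaving out library 1 it called 4 in library 3, and leaving out library 2 it called 3 in library 4. Over all genes, the same fits called 2206 of 17798, 2552 of 17662, 1303 of 17723 and 1386 of 17780, and each estimated the error from a single pair of libraries.

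Other genes of the response were compared in library 2 against the other 3 as lists, and none of them was called there by edgeR. The median log2 difference was 0.67 for the 10 genes and 0.39 for 24 genes listed as other HIF targets, of which 23 were tested. It was 0.13 for 18 glycolytic targets, 0.09 for the 12 other oxygen-sensing genes and -0.02 for all genes tested. The 24 held Bnip3l and Egln2, and Egln2 was counted among the 12 as well. At an unadjusted p under 0.05, 11 of the 23 other targets and 6 of the 18 glycolytic ones were higher in library 2, against a share of 7.38% in both directions over all genes. Ndrg1, a stress-responsive HIF target, had 58.2 TPM in library 2, against 25.2 ± 4.64 TPM in the other 3, and Pfkfb3, a regulator of glycolysis, 44.4 TPM, against 24.2 ± 4.42 TPM. Both were named after their values were seen.

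Among the other HIF targets, 23 of 24 were expressed. Ddit4, a stress-induced brake on growth signalling, was the highest at 441 ± 23.3 TPM and was even across libraries. P4ha1, a collagen prolyl hydroxylase, stood at 169, 546, 211 and 360 TPM, and Tfrc, the transferrin receptor, at 187, 278, 268 and 208 TPM. Edn1, a vasoconstrictor peptide, stood at 3.57, 7.82, 1.84 and 1.84 TPM. Epo, the red cell hormone that HIF-2 controls in liver and kidney, had 2, 2, 6 and 1 counts, which is at most 0.890 TPM. All 18 glycolytic targets were expressed, with Pgk1, Pkm and Eno1 highest at 1684 ± 152, 1088 ± 88.3 and 759 ± 47.2 TPM and Pfkfb4 and Aldoa lowest at 7.67 ± 1.09 and 10.8 ± 2.56 TPM. Some of these have near-identical copies elsewhere in the genome, so their levels are uncertain.

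**Figure D4:**
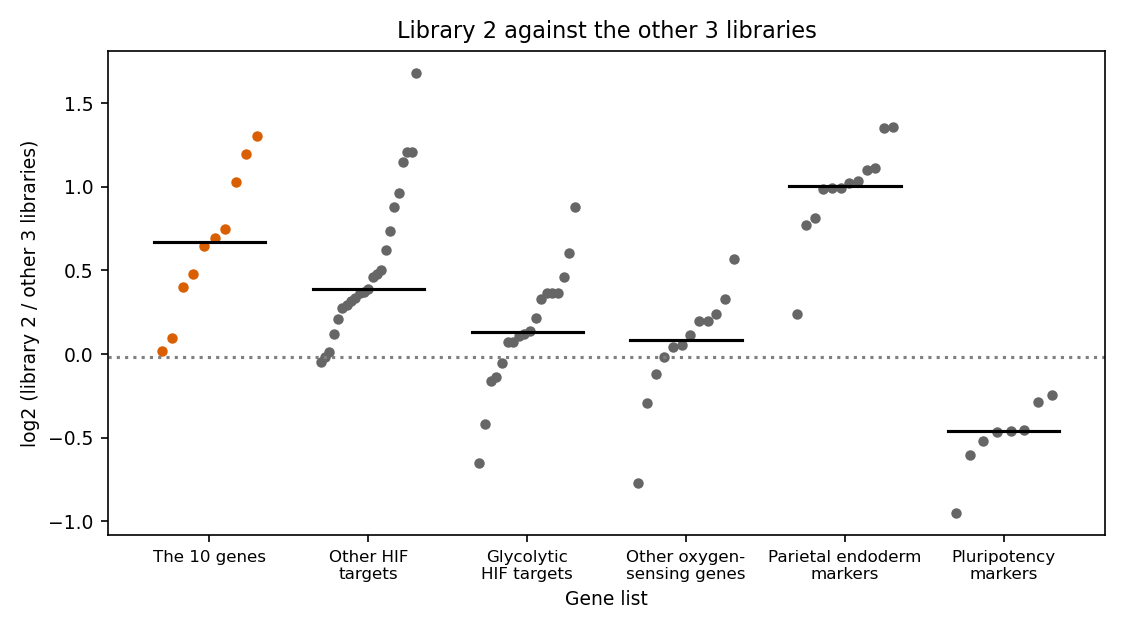
log2 difference of library 2 over the other 3 libraries (edgeR) for each tested gene of 6 lists, with a bar for the list's median and a dotted line for the median of all genes. The medians are 0.67 for the 10 genes, 0.39 for other HIF targets, 0.13 for glycolytic targets, 0.09 for other oxygen-sensing genes, 1.01 for parietal endoderm markers and -0.46 for pluripotency markers.

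Markers of other cell types also differed between the libraries. The summed level of 12 parietal endoderm markers, all of them expressed, was 5570, 17149, 6717 and 13497 CPM in libraries 1 to 4. That of 8 pluripotency markers was 3188, 1804, 2926 and 2139 CPM, and that of 8 fibroblast markers 3581, 6655, 2992 and 4831 CPM. In library 2 against the other 3, the median log2 difference of the fibroblast markers was 0.87, against 0.67 for the 10 genes. The highest of each list were Sparc at 2031 ± 938 TPM, Dppa5a at 2746 ± 987 TPM and Col1a1 at 1172 ± 446 TPM. None of the markers in these 3 lists was at or below 3 counts in every library. By the coefficient of variation, 12 of the 12 parietal endoderm markers, 4 of the 8 pluripotency markers and 6 of the 8 fibroblast markers lay above the 90th percentile for their abundance. The 10 hepatocyte markers summed to 3.86, 20.0, 3.79 and 10.5 CPM in libraries 1 to 4. The part of all these markers in the differences between libraries was not tested. Of 8 erythroid markers, Epor alone was expressed, at 4.71 ± 0.661 TPM, while Hba-a1, Hbb-bs and Car1 had 3 counts or fewer in every library.

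Epas1 was the most variable of the 10 genes by the SD of log2(CPM + 1), and its nearest genes in pattern were sought among 9619 protein-coding genes with a mean of 10 CPM or more. The measure was the root mean square distance of centred log2(CPM + 1) over the 4 libraries. The 5 nearest were P3h2, a collagen prolyl hydroxylase, at 0.0595, Col4a1, a basement membrane collagen, at 0.0645, Thbd, a thrombin receptor, at 0.0739, F3, tissue factor, at 0.0802, and Pth1r, the parathyroid hormone receptor, at 0.0840. Col4a1 and Thbd were in the parietal endoderm list. Flt1 ranked 8th, Plod2 19th and P4ha1 31st, the last 2 being collagen-modifying enzymes and HIF targets. Of the 6 other genes of the set with 10 CPM or more, Vegfa was the nearest at rank 477, and Hif1a ranked 900th. This distance counts the size of a gene's swing as well as its direction. Vegfa deviated from its mean by -0.37, 0.32, -0.15 and 0.20 in libraries 1 to 4. Hif1a deviated by -0.22, 0.25, -0.15 and 0.12, and Epas1 by -0.97, 0.95, -0.51 and 0.53. The directions were thus the same in all 4 libraries, with smaller swings for Vegfa and Hif1a. Flt1, Plod2 and P4ha1 were looked up after values were seen.

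Epas1 is not in the parietal endoderm list, and set against that list's summed CPM its own CPM came to 1.57%, 1.95%, 1.79% and 1.84% in libraries 1 to 4. This ratio ranged over 1.24 times, where the CPM of Epas1 ranged over 3.83 times. The ratio of Hif1a, 4.13%, 1.86%, 3.61% and 2.16%, ranged over 2.22 times, wider than its CPM (1.39 times). For Bnip3 the ratio ranged over 2.51 times against 2.07 times in CPM. Set against the summed fibroblast markers, the ranges were 2.11 times for Epas1, 1.69 times for Hif1a and 1.90 times for Bnip3, and for Adm 2.16 times against 4.09 times in CPM. Both sums were chosen after the values were seen. The sum of parietal endoderm markers holds Col4a1 and Thbd, so its narrow ratio to Epas1 restates their likeness and adds no separate support.

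Bnip3 showed another order of libraries, high in library 2 and low in library 4. By the same distance, a search added after its values were seen, its 5 nearest genes were Wt1, Acta2, Slc7a11, Igfbp3 and Thbs1, at 0.0943 to 0.133. Acta2 was in the fibroblast list. Egln1 ranked 20th of 9619 and Egln3 25th, at 0.191 and 0.196, with Slc16a3, a lactate exporter, 38th, Pfkfb3 40th and Ndrg1 87th. Epas1 ranked 8924th from Bnip3. The wide swing of Epas1 adds to this distance, so the rank does not show an opposite pattern. Both genes were below their means in libraries 1 and 3 and above them in library 2. In the plot of deviations, Epas1 and Bnip3 part in library 4, where Epas1 was 0.53 above and Bnip3 -0.33 from its own mean. A likeness over 4 libraries is a description, since 28 genes lay within a distance of 0.2 of Bnip3 and 43 within that of Epas1.

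**Figure D5:**
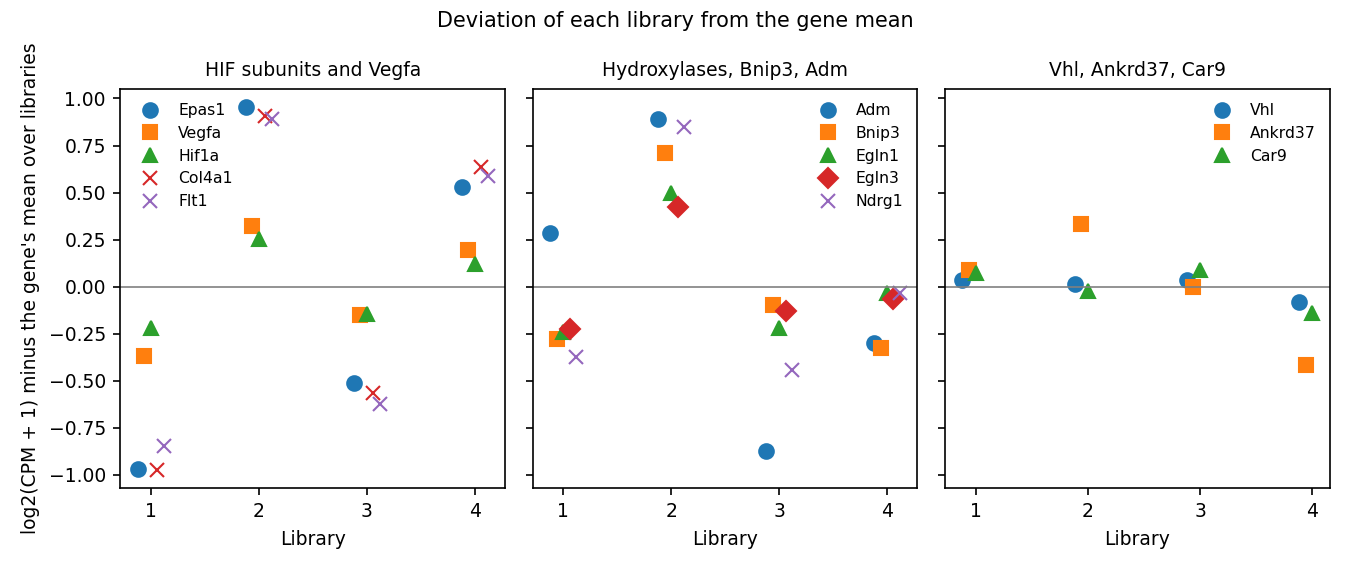
log2(CPM + 1) of each gene minus its mean over the 4 libraries, for the HIF subunits and Vegfa (left, with Col4a1 and Flt1 as crosses), the hydroxylases, Bnip3 and Adm (middle, with Ndrg1 as crosses), and Vhl, Ankrd37 and Car9 (right). On the left libraries 2 and 4 lie above 0 and libraries 1 and 3 below, and in the middle library 2 lies above 0 for every gene while library 4 lies below 0.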

How the data were processed

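The values are raw counts per gene as deposited, whole numbers in 4 tables of 78028 rows. Per the submitters' processing notes, STAR, featureCounts and the build GRCm39 were used, without version, setting or annotation. Libraries were poly(A) selected without strand, per the labels' protocols. Mitochondrial genes held 0 counts. Even numbers made up 60.0% to 62.6% of counts between 1 and 8, as when both read ends are counted. Intervals cover counting error only and are given for both cases.

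The 10 genes and all lists, pairs and tests were chosen with earlier results of these data known. Named are the 10 genes, the 3 highest and 2 lowest of each other list, all pair genes, the 5 genes most like the most variable of the 10, and from marker lists the highest and those at 3 counts or fewer; others are marked, and 1 gene that the rule names is not reported here. TPM used union exon lengths of GENCODE M21 (GRCm38), matched for 48849 rows with 98.9% to 99.1% of counts; G6pc1 had none. Ratios used log2(TPM + 0.1). edgeR 4.0.16 (TMM, filterByExpr) and DESeq2 1.42.0 ran in R 4.3.3. A run of edgeR on simulated data used less spread than the common coefficient of variation of these libraries, 0.205. It therefore does not give error rates for these data. TMM factors were 0.962 to 1.03. Python 3.11.15 was used with numpy 2.4.6, pandas 2.3.3, SciPy 1.17.1 and matplotlib 3.10.9. Alternatives were other tests, normalization, filters, thresholds, pseudocounts, lengths and libraries left out. Promoter sequences are RefSeq's.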

Additional observations from a re-analysis of the deposited data

Results flagged for a closer look

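Of the 20 values screened in the 4 libraries, 10 levels and 10 ratios, 1 stood apart: the level of Bnip3 in library 2, at 166 TPM, was farther from the other 3 libraries than Dixon's test allows at 95%. The other 3 lay at 76.4, 89.2 and 77.8 TPM. Chance flags about 1 value in 20 by this test, so 1 of 20 is the number chance gives.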

How the results depend on the processing

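No paired analysis was possible because the 4 libraries form a single group. All 10 genes were expressed with CPM and with the longest transcript as length, and 8 were at 5 TPM. All 10 were also expressed at 0.5 TPM and without any 1 library, which follows from 1 TPM in all 4. With 1 library left out, 0 to 6 of the 10 were called in library 1, 0 to 7 in library 2, 0 to 4 in library 3 and 0 to 3 in library 4. Without a filter for low counts, edgeR called 1 in library 1 (Epas1; 328 of 39251 genes) and 5 in library 2 (469 genes), and DESeq2 called 1 in library 2. The cause was not tested. In CPM, which uses no length, the log2 ratio of Egln3 to Egln1 was -0.25. That of Vegfa was 2.80 to Vegfb, 3.54 to Vegfc and 5.05 to Pgf, that of Bnip3 to Bnip3l -0.93 and that of Car9 to Car12 -3.50. With the longest transcript as length, Epas1 to Hif1a was -0.87, Egln1 to Egln2 -0.51, Car9 to Car12 -2.66 and Car9 to Car2 -4.91. With a pseudocount of 1, Car9 to Car2 was -4.21. Of 80 alternative ratios 70 moved by less than the spread between libraries, 9 moved by more and 1 reversed. The 70 include every ratio with 1 library left out, a change that cannot shift a mean of 4 by that spread. Depth limits Ankrd37 and Car9, with 43 to 113 counts.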
